A study of Mus musculus with 7 samples.

Results

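The G1 cyclins and CDK inhibitors were followed in whole retina of embryonic day 16 mice, in 10 genes taken by symbol from the 48440 rows of the count table: the D-type cyclins *Ccnd1*, *Ccnd2* and *Ccnd3*, the kinases *Cdk4* and *Cdk6*, the inhibitors *Cdkn1a*, *Cdkn1b*, *Cdkn1c* and *Cdkn2c*, and the retinoblastoma gene *Rb1*. Each of the 10 matched 1 row, and all 10 were among the 20019 genes that passed the filter on low counts. Bulk RNA-seq was performed on 7 libraries. The single WT library came from Chx10Cre control mice (6 pooled retinas). The 3 Het libraries came from Chx10-Cre;Ptbp1lox/WT mice (5, 5 and 6 pooled retinas), and the 3 KO libraries from Chx10-Cre;Ptbp1lox/lox mice (4, 4 and 6). All 3 genotypes therefore carried Chx10-Cre, a Cre-GFP transgene expressed in retinal progenitors, and the floxed allele loses the promoter and the first exon of *Ptbp1*, a repressor of neuronal exons. Because whole retinas were pooled, cells that never expressed Cre remain in every library, and a lower level can mean fewer cells of a type or less RNA per cell, which cannot be told apart here.

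D-type cyclins bind Cdk4 or Cdk6 in G1, and the kinase then phosphorylates Rb1, which releases E2F transcription factors and allows entry into S phase. Inhibitors of the INK4 class, such as Cdkn2c, bind the kinases alone, whereas the Cip/Kip proteins Cdkn1a, Cdkn1b and Cdkn1c bind the complexes of cyclin and kinase. In the developing retina *Ccnd1* is the main D-type cyclin of progenitors, and *Cdkn1b* and *Cdkn1c* are known for their part in cell cycle exit. Whether loss of Ptbp1 in progenitors alters proliferation is a question the study asked by EdU labelling of newborn retina. It reported no significant difference in EdU-positive cells between mutants and controls by a Mann-Whitney test, with a small minimum number of retinas per genotype. Those controls are named as Cre-negative in its results and as Chx10-Cre in its methods. The comparison of KO with Het here concerns transcripts at an earlier age and with heterozygous mice as the control, and does not measure proliferation.

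Total counts per library ranged from 120593979 to 171117305, and the members held between 2245 and 490214 counts in a library. Levels are given as CPM, the count of a gene relative to the TMM-scaled total of its library. *Ptbp1* itself was at 381 CPM in WT, at 210, 219 and 234 CPM in Het, and at 27.9, 6.04 and 46.9 CPM in KO, so that KO1, KO2 and KO3 held 12.6%, 2.73% and 21.2% of the Het mean. Transcripts of cells outside the neural retina also differed between libraries, as shown by lists of their markers, written with the design. Summed over 11 tested skeletal muscle genes (*Myh3* and *Acta1* leading) Het1 reached 304 CPM against 5.88 to 7.31 CPM in the other libraries, and 8 pigment epithelium genes summed to 572 CPM in Het1 against 46.1 to 90.6 CPM. Erythroid genes summed to 189 to 531 CPM in Het and to 37.1, 24.5 and 298 CPM in KO1, KO2 and KO3. Lens genes summed to 40.1 to 109 CPM in Het and to 4.50, 9.42 and 64.5 CPM in the same order. The sum of 9 microglia genes (44.7 to 64.4 CPM in Het, 65.5 to 89.5 CPM in KO) was higher in all KO libraries, with 2 of the 9 called higher. The 9 vascular endothelium genes did not move together: *Kdr* went from 368 to 499 CPM and was the 1 gene called, while 6 of the 9, *Cdh5* and *Pecam1* among them, had log2 fold changes below 0 that did not pass, and the list median was -1.45. Each member below is therefore given in every library.

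Of the 10 members, 2 rose and 2 fell in KO relative to Het. *Cdk6* and *Cdkn2c* were higher, and *Ccnd3* and *Cdkn1c* were lower, whereas *Ccnd1*, *Ccnd2*, *Cdk4*, *Cdkn1a*, *Cdkn1b* and *Rb1* did not pass. A change was called at a Benjamini-Hochberg adjusted p below 0.05 in edgeR's quasi-likelihood test with a fold change above 1.2 in either direction (0.26 on the log2 scale), a rule that called 7.22% of all tested genes, 4.01% as higher and 3.21% as lower. For 6 members every KO library lay on one side of every Het library, 3 above and 3 below, against 36.3% of all tested genes (18.6% above and 17.7% below). The median log2 fold change of the members was 0.02, and that of all genes was -0.0047.

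**Figure D1:**
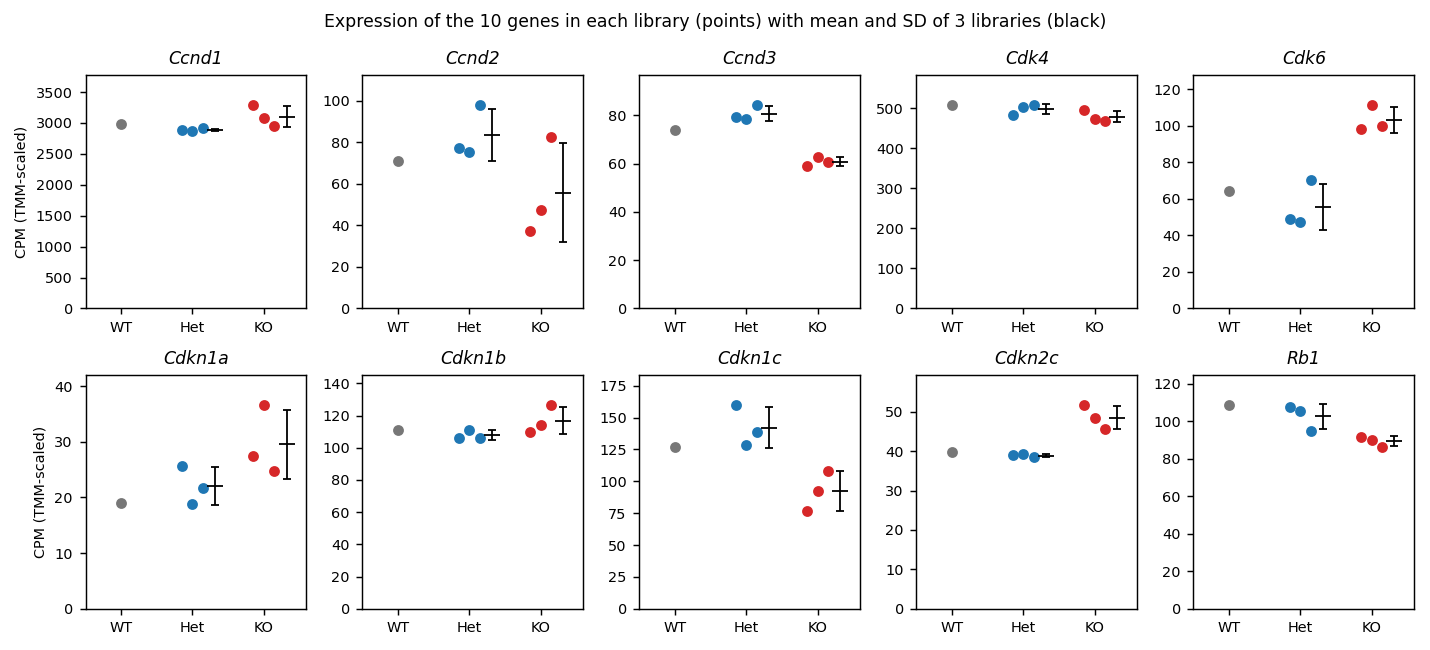
Level of each member in each library, 1 panel per gene, with CPM on a linear vertical axis that starts at 0 and the WT, Het and KO libraries on the horizontal axis; points are libraries and bars are group means with SD for Het and KO (n = 3). KO lies wholly above Het for *Ccnd1*, *Cdk6* and *Cdkn2c* and wholly below it for *Ccnd3*, *Cdkn1c* and *Rb1*. Of these, *Ccnd1* and *Rb1* were not called.

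*Ccnd1* (ENSMUSG00000070348.5, chr7:144929931-144939925, minus strand) dominated the D-type cyclins. Positions of genes are given on GRCm38. It stood at 2989 CPM in WT, at 2886, 2872 and 2912 CPM in Het, and at 3290, 3078 and 2944 CPM in KO. Every KO library lay above every Het library, but the difference was small (log2 fold change 0.10, SE 0.0529, 95% interval -0.02 to 0.23) and did not pass in edgeR (adjusted p = 0.243). Per kilobase of exon, which allows genes to be compared, *Ccnd1* was at 614 CPM per kb in Het and made up 97.1% ± 0.241 (SD, n = 3) of D-type cyclin transcripts there and 98.1% ± 0.478 (SD, n = 3) in KO.

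*Ccnd3* (ENSMUSG00000034165.16, chr17:47505051-47599691, plus strand) had the smallest adjusted p of the members and fell. Its level was 73.7 CPM in WT, 79.4, 78.3 and 84.2 CPM in Het, and 59.0, 62.6 and 60.6 CPM in KO. The KO libraries lay close together and below every other library, with the KO mean at 75.3% of the Het mean (log2 fold change -0.41, SE 0.0389, edgeR adjusted p = 0.00480). Neighbouring genes were lower as well. Of the 20 tested genes nearest to it, the farthest 580 kb away, 8 were called lower in KO and 0 higher. The median log2 fold change of the 20 was -0.41, the value of *Ccnd3* itself. Among them were *Mrps10* (-1.56 on the log2 scale), *Foxp4* (-0.72), *Taf8* (-0.50) and *Ubr2* (-0.41). *Bysl*, which overlaps *Ccnd3* on the other strand, went from 50.2 to 35.7 CPM (log2 fold change -0.49, edgeR adjusted p = 0.0490). As no source used here gives the strand setting of the counting, reads of these 2 genes may be mixed where they overlap. Around each of the other 9 members, 0 to 5 of the 20 were called in either direction, and 0 to 3 were called lower.

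**Figure D2:**
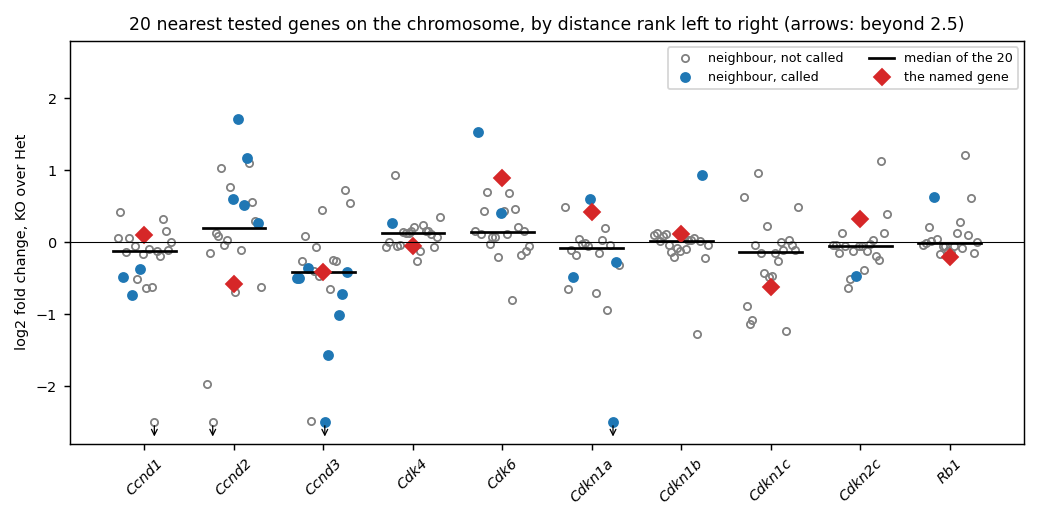
Log2 fold change (KO over Het, vertical axis) of each member (diamonds) and of its 20 nearest tested genes (circles, filled where called), 1 column per member, with a line at the median of the 20 and arrows for values below -2.5. The neighbours of *Ccnd3* lie around its own value, with 8 called, all lower in KO, whereas the medians around the other members lie between -0.13 and 0.20.

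*Ccnd2* (ENSMUSG00000000184.12, chr6:127125162-127152193, minus strand) varied most between libraries. It was at 71.0 CPM in WT, at 77.2, 75.3 and 98.0 CPM in Het, and at 37.1, 47.5 and 82.5 CPM in KO. KO1 and KO2 lay below all Het libraries while KO3 lay among them, so the groups overlapped, and the log2 fold change of -0.58 (SE 0.285, 95% interval -1.26 to 0.10) did not pass in edgeR (adjusted p = 0.223). Without KO3 it was -0.98 and passed (edgeR adjusted p = 0.0208). KO3 was also the KO library with the highest erythroid sum (298 CPM) and lens sum (64.5 CPM), and with the highest residual *Ptbp1* (46.9 CPM). The part of these in the value of *Ccnd2* was not tested. On the scale of CPM summed over genes, the D-type cyclins together were at 3054 ± 35.7 CPM in Het and 3220 ± 152 CPM in KO (SD, n = 3), mostly *Ccnd1*.

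Of the kinases that these cyclins activate, *Cdk4* hardly differed between genotypes and *Cdk6* rose. *Cdk4* (ENSMUSG00000006728.12, chr10:127063534-127067920, plus strand) was at 508 CPM in WT, at 483, 503 and 508 CPM in Het, and at 497, 473 and 469 CPM in KO. The groups overlapped, and the interval of its log2 fold change (-0.05, SE 0.0382) ran from -0.15 to 0.04. *Cdk6* (ENSMUSG00000040274.11, chr5:3341485-3531008, plus strand) was at 64.5 CPM in WT, at 48.7, 47.5 and 70.2 CPM in Het, and at 98.1, 111 and 99.8 CPM in KO. All KO libraries exceeded all others, and the increase of 1.86-fold (95% interval 1.44 to 2.39, log2 fold change 0.89, SE 0.153) passed in edgeR (adjusted p = 0.0188). The call was lost without Het2 (log2 fold change 0.79, edgeR adjusted p = 0.0727) and without KO2 (0.83 and 0.0661).

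The balance of the kinases shifted accordingly. Per kilobase of exon, *Cdk4* exceeded *Cdk6* by a ratio of 33.9 in WT, of 42.7, 45.5 and 31.2 in Het, and of 21.8, 18.3 and 20.2 in KO, with no overlap between Het and KO. *Cdk6* thus made up 2.51% ± 0.518 of kinase transcripts in Het and 4.76% ± 0.402 in KO (SD, n = 3), and *Cdk4* remained the main kinase transcript in every library. The lengths are those of all annotated exons merged, so a gene with many unused exons is underestimated on this scale.

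Upstream sequence is shown for the members that rose and, below, for the inhibitor with a p53 element. RefSeq windows of 250 bases before an annotated start (GRCm38.p6) were at hand for 6 of the 10 members: *Ccnd3*, *Cdk4*, *Cdk6*, *Cdkn1a*, *Cdkn1b* and *Cdkn2c*, 9 windows in all. Searched on both strands, the E2F-type motif TTTNNCGC occurred in 1 of the 9, that of *Cdk6*, and in 4.28% of the 32851 windows of all genes. The E-box CACGTG occurred 4 times before *Cdk4* and 1 time before *Cdk6*, and in 6.02% of all windows. The GC box GGGCGG occurred in 6 of the 9, before *Ccnd3*, *Cdk4*, *Cdkn1a*, *Cdkn1b* and *Cdkn2c*, and in 32.7% of all windows. It occurred 3 times in a window of *Cdkn2c*. None of these matches overlaps another in the sequences printed here. Below, capitals mark TTTNNCGC and CACGTG in the *Cdk6* window (chr5:3343643-3343892, plus strand) and GGGCGG in the *Cdkn2c* window (chr4:109666757-109667006, minus strand). Both windows lie inside the gene positions given in this text, so each precedes a RefSeq start within its gene and not the outermost annotated start.
Cdk6: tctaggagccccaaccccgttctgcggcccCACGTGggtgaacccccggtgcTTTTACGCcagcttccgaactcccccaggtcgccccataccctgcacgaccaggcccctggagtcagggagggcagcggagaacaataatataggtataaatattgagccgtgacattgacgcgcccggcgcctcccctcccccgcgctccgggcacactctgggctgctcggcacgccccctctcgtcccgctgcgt
Cdkn2c: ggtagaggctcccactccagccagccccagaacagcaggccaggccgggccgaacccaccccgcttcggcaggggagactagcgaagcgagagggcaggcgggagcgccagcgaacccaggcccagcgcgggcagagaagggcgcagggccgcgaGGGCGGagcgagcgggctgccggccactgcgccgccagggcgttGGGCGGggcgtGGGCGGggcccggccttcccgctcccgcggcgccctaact

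*Cdkn2c* (ENSMUSG00000028551.14, chr4:109660876-109667189, minus strand) encodes the INK4 inhibitor p18, which binds Cdk4 and Cdk6, and rose alongside *Cdk6*. Its level was 39.7 CPM in WT, 38.9, 39.3 and 38.5 CPM in Het, and 51.6, 48.4 and 45.6 CPM in KO. Het and WT lay within a narrow range and every KO library lay above it. Relative to Het, KO averaged 125% (log2 fold change 0.32, SE 0.0469, 95% interval 0.21 to 0.43, edgeR adjusted p = 0.0126). The call was lost without Het2 (edgeR adjusted p = 0.0666), without Het3 (0.0570) and without KO2 (0.0564). The other INK4 genes were not called, and *Cdkn2a* and *Cdkn2b* were at 0.172 and 0.113 CPM in Het, against 32.2 CPM for *Cdkn2d*.

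Of the Cip/Kip inhibitors, *Cdkn1c* (ENSMUSG00000037664.13, chr7:143458339-143461050, minus strand) fell. It is an imprinted gene and encodes p57. It was at 127 CPM in WT, at 160, 128 and 139 CPM in Het, and at 76.9, 92.4 and 108 CPM in KO. All KO libraries lay below all others, and they averaged 65.0% of Het (log2 fold change -0.62, SE 0.133, 95% interval -0.94 to -0.30, edgeR adjusted p = 0.0333). This was the least stable of the calls. It held without KO3 and was lost without each other Het or KO library in turn, with edgeR adjusted p from 0.0504 to 0.102 and log2 fold changes from -0.69 to -0.50. The highest *Cdkn1c* library was Het1, which held the muscle and pigment epithelium transcripts, and without it the log2 fold change was -0.53. The list of postmitotic neuron genes, *Tubb3* (-0.35 on the log2 scale) among them, had a lower sum in KO as well. It was 6269 to 6542 CPM in Het and 5340 to 6031 CPM in KO. The genes did not all move together, with 4 of 14 called lower and 1 higher. Photoreceptor precursor genes summed to 886 to 983 CPM in Het and 1112 to 1255 CPM in KO, with 5 of 9 called higher and 0 lower. The part of these cell types in the level of *Cdkn1c* was not tested.

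*Cdkn1b* (ENSMUSG00000003031.14, chr6:134920401-134925513, plus strand) encodes p27. It was at 111 CPM in WT, at 106, 111 and 106 CPM in Het, and at 110, 114 and 126 CPM in KO. The groups overlapped and the difference did not pass (log2 fold change 0.12, SE 0.0557, 95% interval -0.02 to 0.25, edgeR adjusted p = 0.214). Per kilobase of exon *Cdkn1c* was the main Cip/Kip transcript in every library, but its share went from 69.9% ± 2.06 in Het to 56.9% ± 3.17 in KO, while that of *Cdkn1b* went from 23.9% ± 2.51 to 32.5% ± 1.94 (SD, n = 3). The share of *Cdkn1a* went from 6.20% ± 0.451 to 10.6% ± 2.45. None of these shares overlapped between the groups. As they are parts of the same total, a lower *Cdkn1c* raises the other shares by itself. Summed as CPM, the 3 inhibitors were at 272 ± 17.0 CPM in Het and 239 ± 22.7 CPM in KO (SD, n = 3), and KO3 (259 CPM) lay within the range of Het.

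*Cdkn1a* (ENSMUSG00000023067.13, chr17:29090976-29100727, plus strand) encodes p21 and is a target of p53. It was at 19.0 CPM in WT, at 25.6, 18.8 and 21.6 CPM in Het, and at 27.4, 36.5 and 24.7 CPM in KO. KO3 lay below Het1, so the groups overlapped, and the log2 fold change of 0.42 (SE 0.169, 95% interval 0.02 to 0.83) did not pass in edgeR (adjusted p = 0.152). DESeq2 called it (adjusted p = 0.0198). The upstream of its windows (chr17:29090729-29090978, plus strand), printed below, holds a p53 element of 20 bases in capitals. The search allowed 1 mismatch to the consensus of 2 adjacent half-sites. It found a match in 0.0761% of all windows and in 1 of the 9 windows of members. The downstream *Cdkn1a* window (chr17:29093519-29093768, plus strand) holds no such match.
Cdkn1a: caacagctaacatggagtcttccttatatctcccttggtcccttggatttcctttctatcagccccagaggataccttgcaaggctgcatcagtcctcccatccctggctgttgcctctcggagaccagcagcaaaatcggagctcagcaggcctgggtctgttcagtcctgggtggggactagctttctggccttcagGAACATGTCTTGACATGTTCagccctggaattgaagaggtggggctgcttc

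Other p53 target genes were therefore read beside it. Of 14 tested, 3 (21.4%) were called higher and 0 lower, against 4.01% and 3.21% of all tested genes. The median log2 fold change of the 14 was 0.15. *Eda2r*, a receptor of the TNF family, went from 4.96, 4.42 and 6.81 CPM in Het to 10.2, 19.6 and 11.5 CPM in KO (log2 fold change 1.35, SE 0.282, edgeR adjusted p = 0.0314). *Phlda3*, an inhibitor of Akt, went from 6.88, 5.42 and 6.93 CPM to 10.4, 14.4 and 9.17 CPM (0.82, SE 0.187, 0.0398). *Gdf15*, a secreted stress-response factor, passed at a very low level of 0.0803 CPM in Het and 0.191 CPM in KO. DESeq2 also called 3 of the targets, but these were *Eda2r*, *Phlda3* and *Pmaip1*, and not *Gdf15*. The most abundant targets that did not pass were *Ccng1* (log2 fold change 0.22), *Trp53inp1* (0.20) and *Mdm2* (0.02), and *Mdm2*, the ubiquitin ligase of p53, was -0.0038 without Het1. The count of 3 went to 0 without Het1, Het2, Het3 or KO2, with the replicate number as a block, and when the test was made against the fold limit itself (glmTreat). KO2, the library with the least *Ptbp1*, had the highest *Cdkn1a* and the highest *Eda2r* and *Phlda3*, whereas *Gdf15* was highest in KO1 (0.226 CPM against 0.182 CPM in KO2). KO3 held more *Ptbp1* (46.9 CPM) than KO1 (27.9 CPM). It was above KO1 in *Eda2r* and below it in *Phlda3* and *Cdkn1a*. A relation of these genes to the level of *Ptbp1* was not tested.

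**Figure D3:**
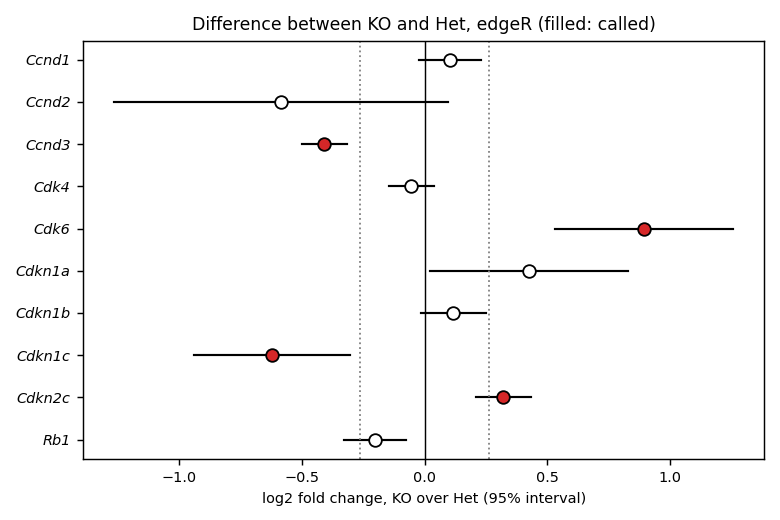
Log2 fold change (KO minus Het) of each member with its 95% interval from the edgeR fit, with filled points for the 4 members that were called and dotted lines at a fold change of 1.2 in either direction. The intervals of *Cdk6* and *Cdkn1c* are wide, and those of *Ccnd3* and *Cdkn2c* are narrow.

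*Rb1* (ENSMUSG00000022105.6, chr14:73183673-73325822, minus strand) encodes the protein that the kinases phosphorylate. It was at 108 CPM in WT, at 108, 105 and 94.8 CPM in Het, and at 91.3, 90.0 and 86.1 CPM in KO. All KO libraries lay below all Het libraries, with the KO mean at 86.9% of the Het mean. The log2 fold change of -0.20 (SE 0.0530, 95% interval -0.33 to -0.08) was under the fold limit, and the edgeR adjusted p was 0.0570. In DESeq2 the adjusted p was 0.00540, but the log2 fold change of -0.21 was again under the fold limit, so *Rb1* was not called there either. *Rb1*, *Ccnd1* and *Cdk4* also overlap genes on the other strand (*Rcbtb2* and *Lpar6*, *Oraov1*, and *Tspan31*), none of which was called. Its relative *Rbl2* (p130), a pocket protein of quiescent cells, rose from 26.0, 24.0 and 23.0 CPM in Het to 33.7, 33.2 and 35.7 CPM in KO (log2 fold change 0.49, SE 0.0568, edgeR adjusted p = 0.00707). It was the 1 gene called (3.70%) among 27 further genes of the G1 to S transition, against 7.22% of all tested genes. Those 27 had a median log2 fold change of 0.01. *Fbxw7*, which marks cyclin E for degradation, was higher by 0.25 on the log2 scale (edgeR adjusted p = 0.0159), short of the fold limit. So were *E2f1* (0.23) and *Cdc25a* (-0.23), named after their values were seen. The most abundant of the others, *Ccna2* (0.14) and *Tfdp2* (-0.04), did not pass.

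Genes of S phase and mitosis, which act after these regulators, were not called. Of 20 tested, edgeR and DESeq2 called 0, with 5 at an unadjusted p below 0.05 in edgeR against 29.7% of all tested genes. Their log2 fold changes ran from -0.11 to 0.20 with a median of 0.06, and 16 of the 20 were above 0. *Bub1* (0.14), named after its value was seen, had an edgeR adjusted p of 0.0395 but fell short of the fold limit. *Top2a* was at 0.06, *Mcm6*, a subunit of the replicative helicase, at 0.07, and *Mki67*, a marker of cycling cells, at 0.10 (769 ± 46.3 CPM in Het and 824 ± 5.32 CPM in KO, SD, n = 3). The CPM of the 20 genes summed to 4437 to 4623 in Het and 4602 to 4906 in KO. These overlap through KO3 (4602) and Het2 (4623) alone.

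**Figure D4:**
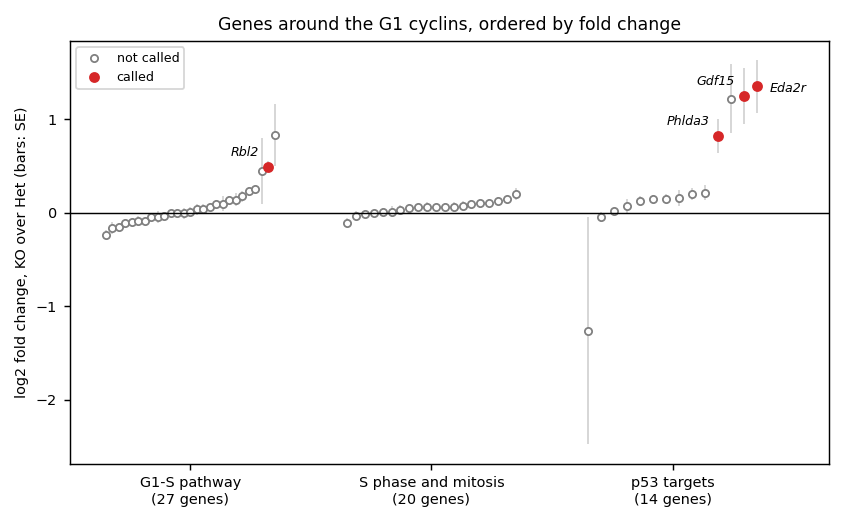
Log2 fold change (KO over Het, vertical axis) of every tested gene in the lists of the G1 to S transition (27 genes), S phase and mitosis (20) and p53 targets (14), ordered by value within a list, with SE as bars and called genes filled and named. Of these genes 4 were called, all higher in KO: *Rbl2*, *Eda2r*, *Phlda3* and *Gdf15*.

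Ordered by level per kilobase of exon, the members ran in Het from *Ccnd1* (614 CPM per kb) through *Cdk4* (153), *Cdkn1c* (69.7), *Cdkn1b* (23.7), *Rb1* (17.0), *Cdkn2c* (14.5), *Ccnd3* (9.19), *Ccnd2* (8.88) and *Cdkn1a* (6.20) to *Cdk6* (3.97). Neighbours in this order did not overlap in their 3 libraries, apart from *Ccnd3* and *Ccnd2*. In KO the upper 4 kept their places, *Cdkn2c* (18.1) stood above *Rb1* (14.8), and the last 4, *Cdkn1a* (8.32), *Cdk6* (7.37), *Ccnd3* (6.92) and *Ccnd2* (5.92), overlapped with their neighbours. The single WT library lay nearer to the Het mean than to the KO mean for 10 of 10 members. It was within the range of Het for 4 of them and within that of KO for 3. The shares of all tested genes for which these hold were not computed, so the counts are not read as a trait of the members. With 1 library no spread could be given for WT, and it was compared with no test.

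**Figure D5:**
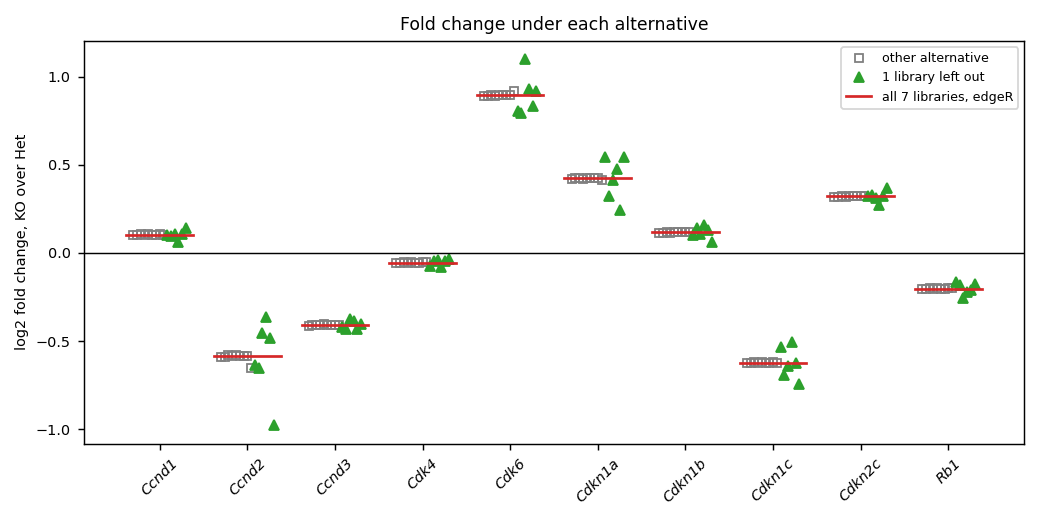
Log2 fold change (KO over Het, vertical axis) of each member in the reported fit (line), with 1 library left out (triangles) and under the other alternatives (squares), 15 in all. No member changed sign. *Ccnd3* was called in 14 of the 15, *Cdk6* in 12, *Cdkn2c* in 11 and *Cdkn1c* in 7.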

How the data were processed

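Counts per gene were deposited as whole numbers without normalization. The authors used STAR, run by rMATS-turbo, for alignment to GRCm38 (mm10) and featureCounts for the counts, from stranded libraries. The setting for strand and multi-mapping reads is not given in the sources used here, so overlapping genes are uncertain. The table has 0 columns other than the 7 libraries. The libraries are separate pools of retinas, but the labels do not say whether the pools came from separate litters. The p-values therefore measure the spread between these pools, which may be in part technical. No 2 replicates of a group agreed within counting noise.

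All 7 libraries were fitted in edgeR 4.0.16 (R 4.3.3) with filterByExpr on genotype, TMM scaling (factors 0.988 to 1.03), a common dispersion of 0.0460, glmQLFit and glmQLFTest, and KO was compared with Het. p-values were adjusted over all 20019 genes. SE is the log2 fold change over the square root of F. Single genes had no permutation test, since 3 libraries against 3 cannot give an exact p below 0.1. Scripts were tested on simulated data. Exon lengths and positions come from GENCODE on GRCm38, upstream sequence from RefSeq. DESeq2 1.42.0, other scalings, filters and call rules, a replicate block and each library left out in turn were the alternatives, and the same alternatives for the pathway lists were added after seeing the data.

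The members, lists and tests were chosen with earlier results of these data known. All members were named, with the called genes and the 3 most abundant others of each pathway list, and up to 2 abundant genes of a cell type list.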

Additional observations from a re-analysis of the deposited data

How the results depend on the processing

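Over 15 alternatives no member changed direction. The count of 4 members called was 5 with DESeq2, 3 with the robust fit, 3 with the replicate block, 0 when glmTreat tested against the fold limit itself, 1 to 5 with 1 library left out, and 4 under the rest. *Ccnd3* alone held without any of the 6 libraries (edgeR adjusted p 0.0106 to 0.0245). The count over all genes, 1445, went to 217 with glmTreat, 2221 with adjusted p alone, 2066 with DESeq2 and 386 to 1673 with 1 library left out (386 without Het2, 496 without Het3 and 612 without KO2). The replicate block gave 1268. The numbers did not pair the libraries, with correlations of deviations of -0.12, 0.26 and 0.02, and under the block 1 member was no longer called, *Cdkn1c* (adjusted p = 0.0624), nor were the 3 p53 targets *Eda2r* (0.0582), *Phlda3* (0.0832) and *Gdf15* (0.0934). By plain counts in place of counts per exon length, *Ccnd1*, *Ccnd2* and *Ccnd3* made up 94.6%, 2.73% and 2.64% of D-type cyclins in Het and 96.4%, 1.75% and 1.89% in KO, and *Cdkn1a*, *Cdkn1b* and *Cdkn1c* 8.07%, 39.8% and 52.2% of the Cip/Kip inhibitors in Het, with *Cdkn1b* at 49.0% and *Cdkn1c* at 38.5% in KO. *Cdkn1c* was thus below *Cdkn1b* in KO on that scale, by the lengths used. Among the p53 targets, *Mdm2* ranged from -0.0038 (without Het1) to 0.033 with 1 library left out. Around *Ccnd3*, 3 of the 10 and 11 of the 50 nearest genes were called lower, with medians of -0.38 and -0.14. With at least 2245 counts per library in every member, the errors reflect the spread between the 3 libraries of each genotype more than depth.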

Other observations

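KO2 was the library with the highest level in 12 of the 14 p53 targets tested, a count made after the values were seen. Over all tested genes it was the highest library in 13.0%, and KO1 in 18.7%. KO2 also held the highest *Cdkn1a* (36.5 CPM) and the lowest *Ptbp1* (6.04 CPM). Between the other KO libraries the order differed: the 14 targets summed to 443 CPM in KO1 and 454 CPM in KO3, with *Ptbp1* at 27.9 and 46.9 CPM. KO2 is 1 pool of 4 retinas, and no test was made of the difference between pools.

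Around *Ccnd2*, 5 of the 20 nearest tested genes were called, all higher in KO, opposite in sign to the log2 fold change of *Ccnd2* (-0.58): *Kcna6*, *Kcna1*, *Kcna5*, which encode potassium channels, *Prmt8* and *Tspan9*. Their log2 fold changes were 0.60, 1.72, 1.17, 0.52 and 0.27. Of the 10 and of the 50 nearest genes, 1 and 7 were called, all higher. Over all tested genes the rule called 4.01% as higher and 3.21% as lower. Around *Ccnd1*, 3 of the 20 nearest were called, all lower, among them the growth factor genes *Fgf15* (-0.49) and *Fgf3* (-0.74). Of its 50 nearest, 5 were called, all lower. Around *Cdkn1c* the count was 0 of 20.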
